A study of Homo sapiens and Mus musculus with 33 samples.

Results

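T-rich 3′ untranslated regions (3′ UTRs) of mouse T cells were followed through a 4-thiouridine (4sU) dose series. A row of the deposited tables is 1 annotated 3′ UTR of 1 transcript. A row was taken as T-rich if it was at least 300 and under 3000 bases long, lay outside the mitochondrial chromosome, held at least 300 reads summed over 8 libraries, and had a T at 35% or more of its bases. Overlapping rows on a strand were reduced to the row with the most reads, which left 122099 of 223314 rows. Of these, 6631 met the limits on length and reads, and 513 of the 6631 were T-rich. Beside them stand 635 T-poor rows, with a T share of 22% or less, and 5483 rows between both limits. The choice used T share, length and total reads, and not the conversion rate.

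The libraries are SLAM-seq libraries of T lymphocytes from mouse lymph nodes, called naive T by the submitters, made with a 3′-end kit from bulk RNA. Cells had been given 250 µM, 500 µM or 1 mM 4sU, and a control group completes the series, with 2 libraries in each of the 4 groups. Titles of the control libraries also speak of 4sU labelling, and neither their dose nor the labelling time, mouse strain, age or genotype is given in the sources used here. Nothing states that the 2 libraries of a group came from separate animals or cultures, so p-values measure the spread between libraries only. Rows carry transcript identifiers that the sources used here pair with no gene names. The labelled cell type could therefore not be checked against marker genes, and rows are named by position. Positions are as the tables give them, on the coordinates of the GENCODE M33 annotation per the file headers. The submitters' processing notes name mm10, an earlier build than the one that annotation was made on, and the positions were not checked against a genome.

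4sU is a uridine analogue that cells build into new RNA. After alkylation with iodoacetamide it is copied as if it were C, so that a T-to-C conversion in a read marks RNA made during labelling. At a given dose and time, an mRNA that is replaced quickly holds a larger labelled share than a long-lived one. 3′ UTRs carry binding sites of microRNAs and RNA-binding proteins. U-rich and AU-rich 3′ UTRs are best known in T cells for the rapid decay of immediate early and cytokine mRNAs. RNA decay was not measured here.

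The libraries held 3689723 to 6548693 reads over the rows kept, and T-rich rows held 153938 to 313596 of these, or 7.27 to 9.09% of the reads on the 6631 rows. A median T-rich row had 1119 reads over all libraries, a T share of 36.3% and a length of 1175 bases. A median T-poor row had 1101 reads, a T share of 20.2% and a length of 570 bases. Reads covered 26.5 to 27.8 T positions each in T-rich rows, except in library 1 at 1 mM with 22.4. In T-poor rows they covered 14.6 to 15.1, against 13.3 in that library. That 1 mM library thus stood apart, with fewer Ts per read in both sets, and 17.1% of its T-rich reads mapped to several places, against 13.3 to 15.1% in the other libraries. Reads gather on few rows. The deepest T-rich row held 22.5% of the set's reads, and the deepest T-poor row held 37.1%, so pooled values and medians over rows are both given.

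The conversion rate of T-rich rows was higher at each higher dose of 4sU. The conversion rate is the number of T-to-C conversions counted, divided by the T positions that reads covered. In the controls, reads counted as converted carried 2.15 and 2.07 conversions each in T-rich rows, and 1.81 and 1.73 in T-poor rows. The least number of conversions for a read to count was not established here. Whether Ts per read enter the rate was not tested. Pooled over T-rich rows, the rate was 0.000908 and 0.000681% in the control libraries and 4.57 and 4.77% at 250 µM. It was 5.84 and 6.12% at 500 µM, and 6.72 and 7.08% at 1 mM. No library of a higher dose fell to the level of a lower one. The control values rest on 71 and 29 conversions, with exact Clopper-Pearson 95% intervals of 0.000709 to 0.00115% and 0.000456 to 0.000978%, which cover counting error only because the reads carry no molecular identifiers. In the controls 15 and 6 of the 513 T-rich rows had any counted conversion. The rate of the median T-rich row averaged 4.83 ± 0.165% (SD, n = 2 throughout) at 250 µM. At 500 µM it was 6.41 ± 0.207%, and at 1 mM 7.44 ± 0.0439%.

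**Figure D1:**
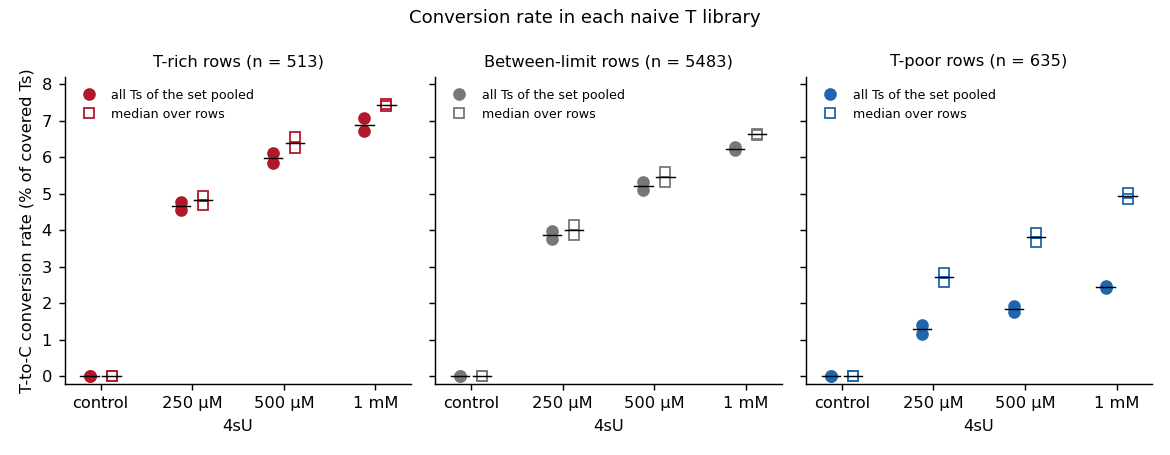
T-to-C conversion rate (percent of covered Ts) in each library by 4sU group, for T-rich, between-limit and T-poor rows. Filled points pool all Ts of a set, open squares are medians over rows, and short lines are means of 2 libraries. T-rich pooled rates run from 4.57% at 250 µM to 7.08% at 1 mM, and the pooled T-poor points lie below the T-poor medians.

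T-rich rows had higher rates than T-poor rows in each of the 6 labelled libraries. T-poor rows pooled to 0.00143 and 0.00130% in the controls, 1.17 and 1.41% at 250 µM, 1.76 and 1.92% at 500 µM, and 2.42 and 2.47% at 1 mM. The T-rich rate was higher by 3.99 points on average (SD 0.505, range 3.36 to 4.61, 6 of 6 libraries). A two-sided exact sign-flip permutation test over libraries gave p = 0.03125, the smallest p that 6 libraries allow, and also p = 0.03125 after Benjamini-Hochberg adjustment over 6 tests. Medians over rows differed by 2.40 points, again in 6 of 6 libraries (exact p = 0.03125). The set between the limits lay closer. T-rich rows exceeded it by 0.737 points (range 0.438 to 0.866, exact permutation p = 0.03125, adjusted p = 0.03125).

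The size of the pooled difference depended on a few rows and on the strand. The deepest T-poor row, chr17:40157244-40159092 on the plus strand (1849 bases, T share 21.9%, 19.7% of reads mapped to several places), had rates of 0.254 and 0.319% at 250 µM, 0.401 and 0.445% at 500 µM, and 0.448 and 0.523% at 1 mM. Without it the difference was 2.96 points. Among rows with at most 1% of reads mapped to several places, 362 T-rich and 410 T-poor, it was 2.12 points (exact p = 0.03125 each). The annotation itself is uneven, with 180276 plus-strand and 43022 minus-strand lines outside the mitochondrial chromosome. Minus-strand rows made up 47.2% of T-rich and 23.1% of T-poor rows. Among minus-strand rows the pooled difference was 0.245 points with an exact sign-flip p of 0.25, and both 1 mM libraries had lower pooled rates in T-rich rows, at 6.25 and 6.53%, than in T-poor rows, at 6.66 and 6.59%. The deepest T-rich row holds 34.1% of the T-rich minus-strand reads. Without that row the minus-strand difference was 0.905 points (exact p = 0.03125). Medians over minus-strand rows differed by 1.89 points, and medians over plus-strand rows by 2.57 points (exact p = 0.03125 each). A typical T-rich row thus had a higher counted rate than a typical T-poor row on either strand. The pooled difference on the minus strand was not separated from 0. Whether labelling itself differed was not tested.

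The rate followed T share along its whole range and levelled off at the T-rich end. At 1 mM the median row rate was 4.51 ± 0.0241% below a T share of 20%, 6.08 ± 0.0524% from 24 to 26%, 7.29 ± 0.0217% from 32 to 35%, 7.41 ± 0.0727% from 35 to 38%, 7.55 ± 0.104% from 38 to 41% and 7.63 ± 0.0252% above 41% (SD over 2 libraries each). These bins hold 287, 871, 1048, 421, 77 and 15 rows, so the last rests on few rows. Across all 6631 rows the Spearman rho of T share with the 1 mM rate was 0.40. Within the 513 T-rich rows it was 0.10. Both are descriptions across rows of the same libraries, which also share depth and read length. Neither length nor depth ordered the T-rich rows much more: rho with the 1 mM rate was 0.07 for length and 0.07 for total reads. By length, the 1 mM median was 7.29% in 88 T-rich rows of under 500 bases and 7.56% in 190 rows of 1500 bases or more. In T-poor rows the same length classes had 4.32% (266 rows) and 5.52% (66 rows).

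**Figure D2:**
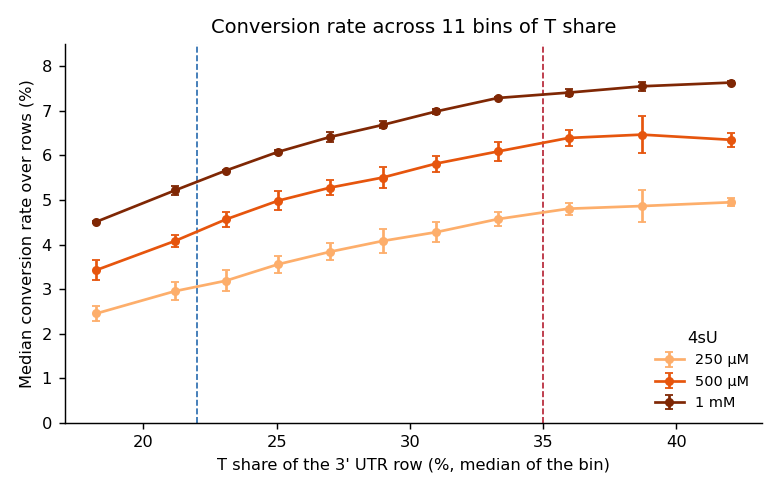
Median conversion rate over rows (percent) against T share (percent, bin medians) in 11 bins of the 6631 rows, 1 line per 4sU dose. Points are means and bars SDs of 2 libraries, and dashed lines mark the T-poor limit at 22% and the T-rich limit at 35%. At 1 mM the line climbs from 4.51% in the lowest bin to 7.29% just under the T-rich limit, and stays between 7.41 and 7.63% beyond it.

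Single T-rich rows spread widely but seldom had low rates. At 1 mM the middle 50% of them, by the mean of both libraries, lay between 6.62 and 8.27%, with the lowest 10% under 5.67% and the highest 10% over 8.88%. T-poor rows had their middle 50% between 3.21 and 6.16%. Of the T-rich rows 383 (74.7%) were above the median of all 6631 rows, against 118 (18.6%) of the T-poor rows. A rate of over 10% occurred in 9 T-rich rows, 30 rows between the limits and 0 T-poor rows, or 1.75%, 0.547% and 0 of each set. Rates under 2% occurred in 4 T-rich rows (0.780%) and 78 T-poor rows (12.3%). Rates of the same T-rich rows in both 1 mM libraries had a Spearman rho of 0.53 across the 513 rows, so their order was shared between libraries only in part.

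**Figure D3:**
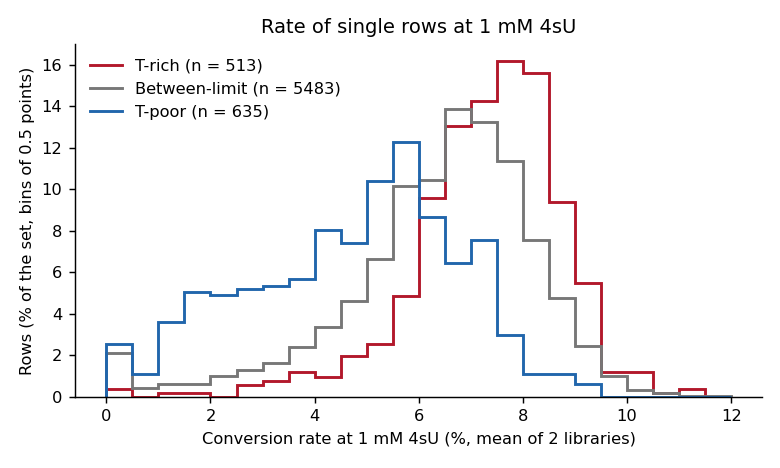
Distribution of the conversion rate at 1 mM 4sU (percent, mean of 2 libraries per row) over 513 T-rich, 5483 between-limit and 635 T-poor rows, as percent of each set in bins of 0.5 points. The T-rich curve peaks to the right, with a median of 7.49%, against 6.67% between the limits and 5.04% in T-poor rows.

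The 3 T-rich rows with the most reads differed more than 2-fold in rate. The deepest, chr5:142888870-142889552 on the minus strand (683 bases, T share 36.2%, 402184 reads), had rates of 3.03 and 3.17% at 250 µM, 3.87 and 3.90% at 500 µM, and 3.42 and 4.61% at 1 mM. Its 1 mM libraries enclosed its 500 µM libraries. In the controls 10 of 65465 and 7 of 26776 of its reads were counted as converted. The second, chr11:33102287-33102813 on the minus strand (527 bases, T share 36.1%, 63121 reads), had 3.82 and 4.10%, 4.97 and 5.45%, and 6.18 and 6.57% at the 3 doses from low to high. Of its reads 50.8% mapped to several places, so their assignment is uncertain. The third, chr11:83555208-83555509 on the plus strand (302 bases, T share 37.1%, 41689 reads), had 8.08 and 8.26%, 9.71 and 9.76%, and 10.8 and 11.6%, with no overlap between doses. It also had the second-highest 1 mM rate of any T-rich row (maximum 11.3%) and the highest among those with at least 2000 covered Ts in each labelled library.

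Next in rate at that coverage came chr15:61861758-61862223 on the plus strand (466 bases, T share 36.3%), with 7.51 and 8.01% at 250 µM, 8.98 and 9.55% at 500 µM, and 10.1 and 10.7% at 1 mM. The row chr5:25007821-25008661 on the minus strand (841 bases, T share 35.2%) had 7.10 and 7.04%, 8.47 and 8.82%, and 11.3 and 9.17%. Both stood well above the median T-rich row at each dose, and both had groups that did not overlap.

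At the other end of the T-rich set, chr16:3164776-3165541 on the plus strand (766 bases, T share 35.9%, 820 reads) had 1 converted read of 97 in 250 µM library 1 and 0 conversions in the other 5 labelled libraries. At 1 mM, 0 conversions on 2913 and 2029 covered Ts allow a rate of up to 0.103 and 0.148%, at 3 counts. These limits, and those of the next row, take each covered T as independent. Here the Ts lie on 96 and 65 reads, and a converted T-rich read carried 3.40 conversions on average at 1 mM. The limits may therefore be too low. The control libraries of this row held 102 and 160 reads, so reads were present in every group, and 27.6% of its reads mapped to several places. A second T-rich row had 0 conversions at 1 mM. It is chr6:22291252-22293578 on the plus strand, where 99.8% of reads mapped to several places and 1432 and 318 covered Ts allow up to 0.209 and 0.943%. It is named although it falls short of the coverage of 2000. Apart from these, chr17:71300651-71301606 on the minus strand (956 bases, 23119 reads, 0.121% mapped to several places) had 2.61 and 2.65% at 250 µM, 2.93 and 2.91% at 500 µM, and 3.21 and 3.38% at 1 mM. It is deep, mapped to single places and had rates well under the median T-rich rate. The row chr1:85504620-85505012 on the minus strand (393 bases) had 2.80 and 2.75%, 4.36 and 4.13%, and 3.08 and 3.79%, with 74.2% of reads mapped to several places.

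**Figure D4:**
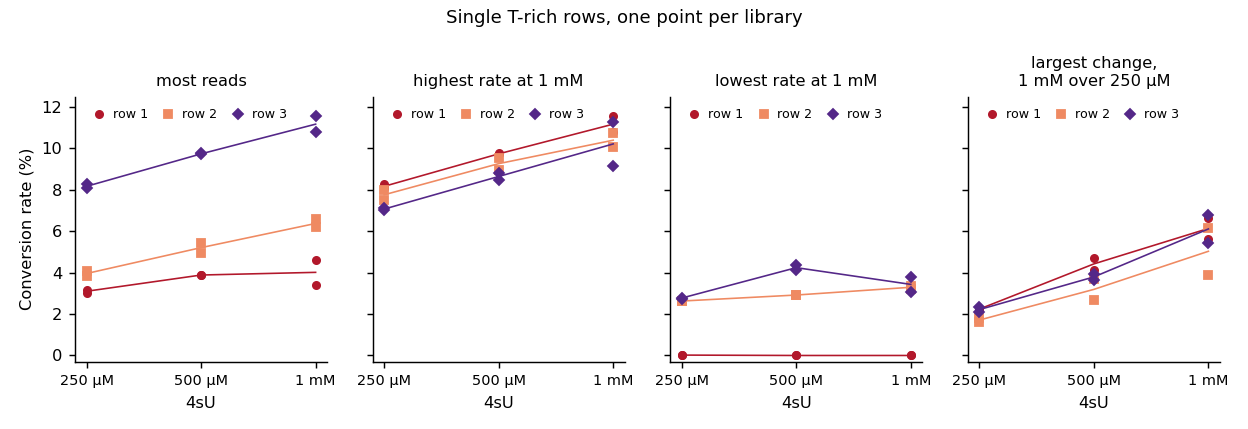
Conversion rate (percent) of single T-rich rows against 4sU dose, 1 point per library and lines through the means of 2 libraries, for the 3 rows with the most reads, the highest 1 mM rate, the lowest 1 mM rate and the largest change from 250 µM to 1 mM (rows with at least 2000 covered Ts in each labelled library in the last 3 panels). The third row of the first panel is also the first row of the second and reaches 11.6%, while the first row of the third panel stays at or near 0.

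The 35% limit cut through rows of like rates. Just inside it, chr7:65822170-65823546, chr17:64588000-64590407 and chr14:73832889-73833582 had rates of 8.46 and 8.93%, 6.86 and 7.64%, and 6.42 and 7.22% at 1 mM. Just outside, chr6:71565956-71566618, chr3:126539782-126541613 and chr4:115632401-115634524 had 8.49 and 8.77%, 9.88 and 7.86%, and 7.81 and 7.43%. The rows with the highest T shares of the set, chr2:170360725-170361043 (46.1%), chr8:95041324-95041694 (43.9%) and chr16:18057648-18057950 (43.9%), had 8.40 and 7.85%, 5.74 and 7.52%, and 7.05 and 7.11%, which lie within the range of the T-rich set.

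A read over a T-rich row covers more Ts, and the share of reads counted as converted differed between the sets by more than the rate. In T-rich rows it was 0.0112 and 0.00909% in the controls, 41.8 and 43.3% at 250 µM, 48.7 and 50.7% at 500 µM, and 45.5 and 53.8% at 1 mM. In T-poor rows it was 0.0115 and 0.0113% in the controls, and 7.67 and 9.17%, 10.8 and 11.7%, and 13.1 and 14.3% at the 3 doses from low to high. The 1 mM library with 45.5% is the one with fewer Ts per read, and it lay below both 500 µM libraries, although its conversion rate lay above them. The difference averaged 36.2 points (range 32.5 to 39.4, 6 of 6 libraries, exact sign-flip permutation p = 0.03125, adjusted p = 0.03125). On minus-strand rows it was 11.5 points, also with exact p = 0.03125. Against rows between the limits it was 8.64 points (range 5.49 to 10.2, exact permutation p = 0.03125, adjusted p = 0.03125). A converted read in T-rich rows carried 3.04 ± 0.0122 conversions at 250 µM, 3.24 ± 0.0372 at 500 µM and 3.40 ± 0.122 at 1 mM, against 2.31, 2.42 and 2.51 in T-poor rows (SD, n = 2).

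The ratio of T-rich to T-poor rates was smaller at higher doses. It was 3.64 ± 0.371 (SD, n = 2 throughout) at 250 µM. It was 3.25 ± 0.0961 at 500 µM, and 2.82 ± 0.0636 at 1 mM. Over the 6 libraries its Pearson correlation with dose was −0.89 (exact permutation p = 0.0111) and its Spearman correlation −0.96 (exact permutation p = 0.0222), both with an adjusted p of 0.03125. Without the 1 mM libraries, which lie farthest from the median dose, r was −0.72 over 4 libraries. The exact p was 0.0667 without 500 µM library 1, 0.133 without 1 mM library 1 and 0.0667 without 1 mM library 2, where 5 libraries can reach 0.0333, so the call rests on each of them. In medians over rows the ratio was 1.78 at 250 µM, 1.68 at 500 µM and 1.51 at 1 mM. On minus-strand rows the pooled ratio was below 1 at 1 mM, with 0.939 and 0.990. Among rows of 1000 bases or more the correlation was −0.61 with an exact permutation p of 0.178.

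**Figure D5:**
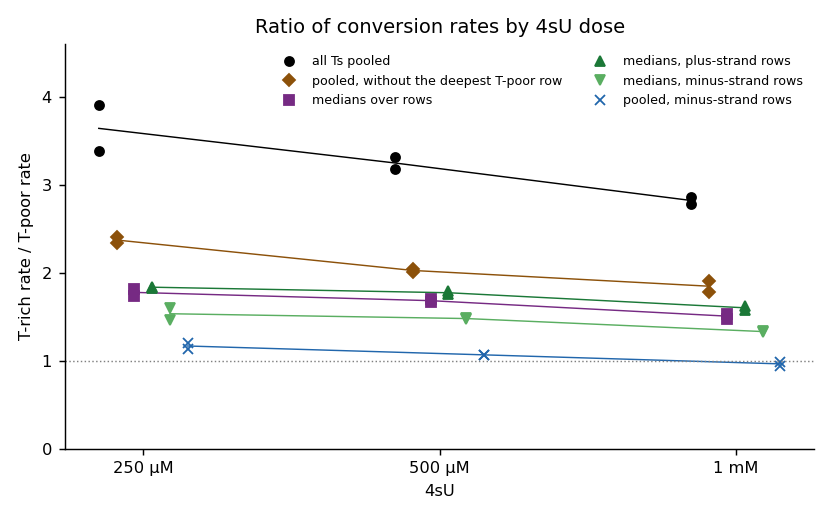
T-rich conversion rate divided by T-poor conversion rate in each labelled library, by 4sU dose, for pooled Ts and for medians over rows, with and without the deepest T-poor row and by strand. Points are libraries and lines run through means of 2. The pooled ratio averages 3.64 at 250 µM and 2.82 at 1 mM, the ratio of medians 1.78 and 1.51, and the dotted line marks equal rates.

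The same pattern held for single rows. In a median T-rich row the 250 µM rate was 64.9% of the 1 mM rate (middle 50% of rows 58.0 to 72.1%), against 61.4% between the limits and 56.2% in T-poor rows. At matched starting rates that order did not hold. Among rows with 4 to 5% at 250 µM, 162 T-rich rows had a median of 7.30% at 1 mM and 81 T-poor rows 6.48%, and the 250 µM rate was 63.0% and 69.0% of the 1 mM rate. Rows matched on a rate that is also the numerator of the share are a description only.

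Row by row, most T-rich rows had a higher rate at 1 mM than at 250 µM, and fewer could be told apart at neighbouring doses. With edgeR's quasi-likelihood test on converted and unconverted Ts, 379 of 513 T-rich rows had a higher rate at 1 mM than at 250 µM at an adjusted p under 0.05 and 0 had a lower one, where 47.6% of all 15096 rows tested were higher and 0.0596% lower. At 500 µM against 250 µM 166 T-rich rows were higher and 0 lower (19.3% and 0.0729% of all rows), and at 1 mM against 500 µM 58 were higher and 0 lower (7.58% and 0.0265% of all rows). At an unadjusted p under 0.05 the counts in these 3 comparisons were 403, 265 and 167 T-rich rows (78.6, 51.7 and 32.6%), against 54.1, 31.9 and 22% of all rows. The rows tested include many outside the limits on length and reads. Among the 6620 tested rows within those limits the share called was closer to that of T-rich rows. For 1 mM against 250 µM it was 73.9% of T-rich rows, against 66.8% of the rows within the limits and 56.1% of T-poor rows. For 500 µM against 250 µM it was 32.4% of T-rich rows against 28.6%. For 1 mM against 500 µM it was 11.3% against 11.1%, so that the last count lies at the background. The test counts Ts, of which T-rich reads cover more, and it was not adjusted for that. With at least 500 covered Ts in each labelled library, 1 mM against 250 µM gave 78.4% of T-rich rows. That stood against 73.6% of rows within the limits and 68.4% of T-poor rows. For 1 mM against 500 µM these shares were 12.7, 14.5 and 14.2%. The median log2 change in odds of conversion was 0.66 in T-rich rows for 1 mM against 250 µM, against 0.75 in all rows and 0.85 in T-poor rows.

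These results moved with the library and the measure. A fit without 1 library leaves 1 in its group, so median log2 changes in odds are given for such fits in place of counts. For 1 mM against 500 µM the T-rich median was 0.24 with all libraries, and 0.21 and 0.26 without 500 µM library 1 or 2. Rows within the limits on length and reads had 0.30, 0.26 and 0.33. For 500 µM against 250 µM the T-rich median was 0.40 with all libraries. It was 0.36 and 0.44 without 250 µM library 1 or 2, and 0.43 and 0.36 without 500 µM library 1 or 2. Rows within the limits had 0.44, 0.41, 0.50, 0.47 and 0.41. Counting converted and other reads in place of Ts gave 114 T-rich rows higher and 2 lower for 1 mM against 250 µM. That is 22.6% of T-rich rows, below the 25.4% of rows within the limits on length and reads and above the 17.4% of all rows. For 500 µM against 250 µM it gave 46 T-rich rows (8.97%, against 5.73% within the limits), and for 1 mM against 500 µM 0. In 468 T-rich rows (91.2%) both 1 mM libraries lay above both 250 µM libraries, against 86.0% of rows between the limits and 77.2% of T-poor rows. The 3 doses were fully ordered in 227 T-rich rows (44.2%), against 40.1% and 31.2%.

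Among T-rich rows with at least 2000 covered Ts in each labelled library, the steepest dose responses belonged to rows with low rates at 250 µM. The 250 µM rate is part of the change itself, so this is a description only. The row chr6:129575433-129575738 on the plus strand (306 bases) had 6.64 and 5.63% at 1 mM, against 2.25 and 2.23% at 250 µM, a log2 change in odds of 1.50 (SE 0.256, edgeR adjusted p = 5.87e-08). The row chr11:21506692-21507442 on the minus strand (751 bases) had 3.90 and 6.17%, against 1.62 and 1.80% (log2 change 1.45, SE 0.227, edgeR adjusted p = 3.79e-09). The row chr14:62590972-62592776 on the plus strand (1805 bases) had 6.78 and 5.44%, against 2.09 and 2.34% (log2 change 1.43, SE 0.224, edgeR adjusted p = 3.60e-09). All 3 lay below the median T-rich row at both doses, and their 1 mM libraries differed by more than 1 point.

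The lowest changes by sign at that coverage were not called, but the direction of some hung on 1 library. The row chrX:106440705-106441496 on the minus strand (792 bases, 5197 reads) had 3.97 and 5.55% at 1 mM, against 5.07 and 4.77% at 250 µM (log2 change in odds −0.15, SE 0.123, edgeR adjusted p = 0.319). Its 1 mM libraries enclosed its 250 µM libraries, and without 1 mM library 1 the log2 change was 0.19 (edgeR adjusted p = 0.319). A lower odds of conversion at 1 mM was called without 1 mM library 2 (log2 change −0.32, edgeR adjusted p = 0.0336) and on reads in place of Ts (−0.71, edgeR adjusted p = 0.0218). The row chr11:53223421-53224128 on the plus strand (708 bases) had 6.39 and 6.95%, against 5.20 and 7.20% (log2 change 0.07, SE 0.189, edgeR adjusted p = 0.810). The row on chromosome 16 described above had the lowest fitted change by sign (log2 change −2.00, SE 3.74), which rests on 1 converted read.

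Few T-rich rows passed the test on total reads against control. All 513 rows passed the filter on low counts, but the limit of 300 summed reads draws on the groups compared. Without the 1 mM libraries 75 of the 513 rows would miss it, and without the control libraries 56, so the counts below are a description of the set. Against control, edgeR's quasi-likelihood test at an adjusted p under 0.05 called 0 T-rich rows higher and 0 lower at 250 µM, where 0.0626% of all 19159 rows tested were called higher and 0% lower. At 500 µM it called 2 higher (0.245% of all rows) and 0 lower (0.00522%), and at 1 mM 12 higher (1.42%) and 5 lower (0.663%). In all 3.31% of T-rich rows were called at 1 mM, against 3.05% of the rows within the limits on length and reads. At 500 µM these shares were 0.390 and 0.377%, so both counts lie near that background. At an unadjusted p under 0.05 there were 42 T-rich rows (8.19%) at 250 µM, 73 (14.2%) at 500 µM and 121 (23.6%) at 1 mM, against 6.35, 11.4 and 22.3% of all rows. DESeq2 called 1 higher and 0 lower at 250 µM, 5 and 1 at 500 µM, and 27 and 17 at 1 mM. The last is 8.58% of T-rich rows, against 8.13% of the rows within the limits on length and reads and 5.75% of all rows. The median log2 change of T-rich rows against control was 0.06 at 250 µM, 0.01 at 500 µM and 0.10 at 1 mM, against −0.04, −0.01 and −0.04 in all rows tested, and the middle 50% of T-rich rows at 1 mM spanned −0.34 to 0.55. In bulk libraries, fewer cells with an mRNA and less mRNA per cell cannot be told apart.

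The changes in total reads moved with single libraries. Fits without 1 library leave 1 in its group, so median log2 changes are given for them in place of counts. At 1 mM the T-rich median was 0.10 with all libraries. It was 0.01 and 0.16 without 1 mM library 1 or 2, and 0.24 and 0.02 without control library 1 or 2. Rows within the limits on length and reads had −0.04, −0.03, −0.09, 0.12 and −0.09 in the same order. Without any 1 of the 250 µM or 500 µM libraries the T-rich median was 0.09 to 0.10. At 500 µM it was 0.15 without control library 1 and −0.05 to 0.03 without any other library. At 250 µM it was 0.20 without control library 1 and 0.01 to 0.07 without any other.

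The largest differences in total reads were seen in rows of few reads. The row chrX:150654476-150656544 on the plus strand (2069 bases) had 18.7 and 9.02 CPM (reads per 1000000 reads on the rows kept) at 1 mM, against 3.97 and 1.39 in control libraries. Of its 373 reads 221 came from outside the 1 mM libraries, so it met the read limit only through the group where it is high, and it is given with no test. The row chr19:27392741-27393246 on the minus strand (506 bases) had 14.5 and 19.2, against 4.14 and 3.34 (log2 change 2.24, SE 0.451, edgeR adjusted p = 0.0232). Both also had more reads than the controls at 250 and 500 µM. The row chr5:8477408-8478634 on the plus strand (1227 bases) had 3.47 and 8.79 at 1 mM, against 15.2 and 127 in control libraries (log2 change −3.36, SE 0.701, edgeR adjusted p = 0.0294). The control libraries differed widely, and control library 1 lay below both 250 µM libraries, at 29.8 and 24.3. Without control library 2 the log2 change was −1.37 (edgeR adjusted p = 0.134). The row chr2:60122447-60124103 on the minus strand (1657 bases) had 9.08 and 7.87, against 35.9 and 41.2 (log2 change −2.06, SE 0.35, edgeR adjusted p = 0.0113), with all 6 labelled libraries under both controls. None of the last 3 calls held without 1 mM library 1, where the log2 changes were 2.42, −2.80 and −2.18. The call of the row on chromosome 19 was also lost without control library 2 (log2 change 1.99, edgeR adjusted p = 0.05002).

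The row on chromosome 15 with the second-highest well-covered rate also had more reads at 1 mM than in control (log2 change 1.72, SE 0.301, edgeR adjusted p = 0.0122). A fit of only the 2 groups compared called 0 T-rich rows, so neither this call nor those of single rows above held there. The deepest T-rich row did not pass the test (log2 change 0.50, SE 0.30, edgeR adjusted p = 0.337). Across the 513 T-rich rows the 1 mM conversion rate had a Spearman rho of 0.24 with the log2 change in total reads, against 0.22 over all 6631 rows. Both measures come from the same 1 mM libraries, so this is a description only.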

How the data were processed

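Bulk SLAM-seq libraries of mouse T cells (8 libraries, 2 in each of 4 groups) were read from 1 table per library with 1 row per annotated 3′ UTR. RNA had been treated with 10 mM iodoacetamide at 50 °C for 15 min and built into 3′-end libraries, per the labels' protocols. The deposited tables hold counts of reads, converted reads, covered Ts and conversions, made with slamdunk 0.4.3 on GENCODE M33 3′ UTRs per the file headers. Further deposited columns, the conversion rate as a fraction and the reads as CPM, served as checks only. Mapping settings and the strand setting are not given in the sources used here.

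Rates were recomputed as conversions over covered Ts, summed over a set or per row. Medians over rows leave out rows without coverage in a library. The CPM printed are a row's reads per 1000000 reads on all rows kept outside the mitochondrial chromosome. Set differences were tested with an exact sign-flip permutation test over the 6 labelled libraries, and the ratio by dose with exact permutations. For rates per row, edgeR's (4.0.16, R 4.3.3) quasi-likelihood test was run on converted and unconverted Ts, with a term per library, a dispersion of 0 so that the quasi-dispersion carries the spread, and at least 100 covered Ts in each labelled library. Total reads were tested with edgeR after filterByExpr and TMM scaling, with all 8 libraries in 1 fit, and with DESeq2 (1.42.0) as an alternative. P-values were adjusted by Benjamini-Hochberg over all rows tested, at 0.05, and the SE of a log2 change was taken as its size over the square root of F. Both row tests were first run on simulated data.

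The members, limits and lists were chosen with earlier results of these data known. Rows named are the 3 T-rich rows with the most reads, the highest T share, or the highest and lowest 1 mM rate, the 3 just inside and just outside the 35% limit, the 3 largest and smallest changes in odds from 250 µM to 1 mM (rates and changes only with 2000 covered Ts in each labelled library), and the 2 largest rises and falls in total reads at 1 mM among called rows whose groups do not overlap. The rows on chromosome 6 with 0 conversions and on chromosome 17 with the most T-poor reads were named after their values were seen. No 2 libraries of a group agreed within sampling noise. The chi-square per degree of freedom of their read counts was 33.5 in controls and 27.8 at 1 mM. It was 4.07 at 250 µM and 3.80 at 500 µM. The fit of all 8 libraries shares its spread over these groups, so p-values for 1 mM against control also draw on the 2 closer groups.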

Additional observations from a re-analysis of the deposited data

How the results depend on the processing

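The higher rate of T-rich than T-poor rows kept its direction under all alternatives and its call under all but the minus-strand pooling (0.25 points, exact p = 0.25) and the leave-one-out settings, where 5 libraries cannot give an exact p under 0.0625. Leaving out 1 library at a time gave 3.86 to 4.11 points for the rate and 35.5 to 36.9 points for converted reads. The correlation of the ratio with dose ranged from −0.97 to −0.84 without 1 library (exact p 0.0333 to 0.133, above 0.05 in 3 of 6 settings), and was −0.61 for rows of 1000 bases or more. The settings by strand, without the deepest rows, against rows between the limits and with a trended dispersion were chosen after seeing the data.

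T-rich rows with a higher rate numbered, without 1 library, 49 to 176 for 500 µM against 250 µM, 5 to 54 for 1 mM against 500 µM and 267 to 376 for 1 mM against 250 µM. On reads in place of Ts they numbered 46, 0 and 114, with 2 lower in the last. For 1 mM against 500 µM, no coverage minimum gave 32 and a trended dispersion 0. Replicate numbers did not pair the libraries (correlations of deviations −0.15 to 0.03). With the replicate block 166, 63 and 380 T-rich rows were called higher in the same 3 comparisons. These are 32.4, 12.3 and 74.1%, against 29.0, 11.8 and 66.9% of rows within the limits.

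For total reads against control, DESeq2 gave 1 T-rich row higher at 250 µM, 5 higher and 1 lower at 500 µM, and 27 and 17 at 1 mM. No filter on low counts gave 1 higher at 250 µM, 5 and 3 at 500 µM, and 18 higher and 14 lower at 1 mM. The last is 6.24% of T-rich rows, against 8.51% of the rows within the limits on length and reads. Fitting only the 2 groups compared gave 0 higher at 500 µM and 0 and 0 at 1 mM. With overlapping rows included 0 were higher at 500 µM, and 7 were higher and 6 lower at 1 mM (2.53%, against 2.73% within the limits). The replicate block gave 1 higher at 500 µM, and 8 higher and 4 lower at 1 mM (2.34%, against 2.70% within the limits). Without 1 library the counts were 0 to 4 and 0 to 1 at 250 µM, 0 to 24 and 0 to 26 at 500 µM, and 0 to 68 and 0 to 43 at 1 mM. The cause was not tested.

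Of single rows, chr11:53223421-53224128 had a log2 change in odds of −0.22 on reads and −0.12 to 0.38 without 1 library. The same range was −0.32 to 0.19 for chrX:106440705-106441496 and −2.94 to 0.41 for chr16:3164776-3165541. With 2 libraries a group, rows of few reads and the control rate, which rests on under 100 conversions, are limited by depth.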

Other observations

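Of the T-rich rows 40 of 513 (7.80%) lay on the X chromosome, against 137 of 5483 between the limits (2.5%) and 16 of 635 T-poor rows (2.52%). The median T-rich row on the X chromosome had 4.41 ± 0.00706% at 250 µM and 6.57 ± 0.235% at 1 mM, against 4.86 ± 0.190% and 7.50 ± 0.0472% on the autosomes (SD, n = 2 each). The same order was seen between the limits, with 5.88 ± 0.0933% and 6.65 ± 0.0214% at 1 mM, and in T-poor rows, with 4.08 ± 0.0271% and 4.96 ± 0.0941%. Only 16 T-poor rows lie on the X chromosome. These splits were made after seeing the data and are given as values with no test.

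Among rows with over 20% of reads mapped to several places, 59 T-rich rows had a 1 mM median of 7.33 ± 0.193%, against 7.40 ± 0.0987% in 362 T-rich rows with at most 1%. In T-poor rows the values were 2.98 ± 0.227% (125 rows) and 5.37 ± 0.0726% (410 rows). The change with multimapping was not compared between the sets by a test.

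T-rich rows of short and long 3′ UTRs had 1 mM medians from 7.29 to 7.56% by length class, whereas rows between the limits had medians from 6.26% (768 rows of under 500 bases) to 6.86% (2133 rows of 1500 bases or more). The rate over 10% in 1 T-rich row of 418 reads, chr6:86668750-86669904, came from libraries at 14.1 and 8.37% and was chosen after its value was seen.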
